A study of Mus musculus with 4 samples.

Results

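Small leucine-rich proteoglycans (SLRPs) are secreted matrix proteins that carry a curved array of leucine-rich repeats. The genes described here are Dcn (decorin), Bgn (biglycan), Aspn (asporin), Fmod (fibromodulin), Lum (lumican), Kera (keratocan), Prelp and Ogn (osteoglycin). They were taken by name from a table of unique molecular identifier (UMI) counts, and all 8 are among its 15746 genes. The table is a single-cell atlas of mouse Achilles tendon, made to catalogue the cell populations of tendon. It holds 4 libraries from male C57Bl/6 mice aged 6 weeks, prepared with version 3 of the 10x Genomics Chromium 3′ chemistry, with no treatment or other genotype named. The 4 libraries form 1 group. Whether a library holds the cells of a single mouse or of pooled mice is not stated, so p-values measure the spread between these libraries, which may be technical in part. The authors' annotation gives each of the 1191 cells 1 of 13 population names, and levels were compared between populations within the libraries.

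SLRPs bind collagen and help to set how thick fibrils grow and how they are spaced, and tendon is rich in them. Class I members (decorin, biglycan, asporin) include carriers of chondroitin or dermatan sulfate chains. The class II members fibromodulin, lumican and keratocan can carry keratan sulfate, while PRELP, of the same class, has a basic amino-terminal region that binds heparin-like chains. Osteoglycin belongs to class III. Fibromodulin and lumican bind an overlapping site on type I collagen, and mice without fibromodulin have altered tendon fibrils.

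Libraries 1 to 4 held 580, 246, 256 and 109 cells, with a median of 7440 to 8824 UMIs per cell and 11499881 UMIs in all. No cell barcode was shared by libraries. Tendon fibroblasts made up 29.7, 5.69, 63.3 and 29.4% of cells in libraries 1 to 4, so library 2, with 14 of them, says little about these populations. Levels are UMI sums over the cells of a population in a library, scaled to the total of that sum (CPM) and given for 5 or more cells. The markers listed for each population were found under its name: 6 tendon markers (Tnmd, Scx, Mkx, Thbs4, Comp and Col1a1) summed to 57583 to 86290 CPM in tendon fibroblasts 1 and to 25209 to 72373 CPM in tendon fibroblasts 2. Their sum was 49854 CPM in tendon fibroblasts 3, where Mkx was at 0. In bursal fibroblasts (the bursa is the fluid-filled pad beside the tendon) the same markers summed to 783 to 4708 CPM and Tnmd was at 0, while the lining markers Prg4, Cd55 and Has1 summed to 102349 CPM or more. Nerve cells 1 and 2 held 5 Schwann cell markers at 63723 to 87606 CPM and nerve cells 3 at 5411 to 9660 CPM. Endothelial cells 3 held the lymphatic markers, at 6492 CPM. The names belong to the same cells whose counts are tested, so the tests below ask how far named populations differ, not whether they exist. When every cell was given the nearest population profile computed without the 8 genes, 95.6% of cells kept their name. The share was lowest in tendon fibroblasts 2, at 91.0% (142 of 156 cells), and it was 92.5% in bursal fibroblasts. The profiles are means over cells of the same names, so the share does not show that the names are independent of the 8 genes.

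The SLRP genes held a larger share of the RNA in fibroblasts than in any other population. In 3′ UMI data a captured transcript gives 1 UMI whatever its length, so levels of different genes may be set side by side. Together the 8 genes made up 4.16% ± 0.39 of all UMIs in tendon fibroblasts 1 (SD, n = 4 libraries), 3.13% ± 1.12 in tendon fibroblasts 2 (n = 3), 2.60% in tendon fibroblasts 3 (library 1 alone) and 0.634% ± 0.319 in bursal fibroblasts (n = 3). In pericytes, the contractile cells around small vessels, their share was 0.105% ± 0.017 (n = 4). Dcn alone held 110048 UMIs, 0.957% of all UMIs in the table. Fmod followed with 13222, Bgn with 10880, Prelp with 6952, Aspn with 3196, Ogn with 2833, Lum with 2162 and Kera with 595. Within tendon fibroblasts 1 the pool was 77.6% ± 2.64 Dcn, 9.84% ± 2.48 Fmod, 6.29% ± 1.27 Prelp and 5.78% ± 1.27 Bgn. The pool of tendon fibroblasts 3 held 7.36% Lum, 0.467% Fmod and 0.662% Prelp. In pericytes 53.3% ± 8.31 of the small pool was Aspn, in endothelial cells 2 62.5% ± 2.67 was Bgn, and in nerve cells 1 93.1% ± 8.18 (n = 3) was Ogn.

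**Figure D1:**
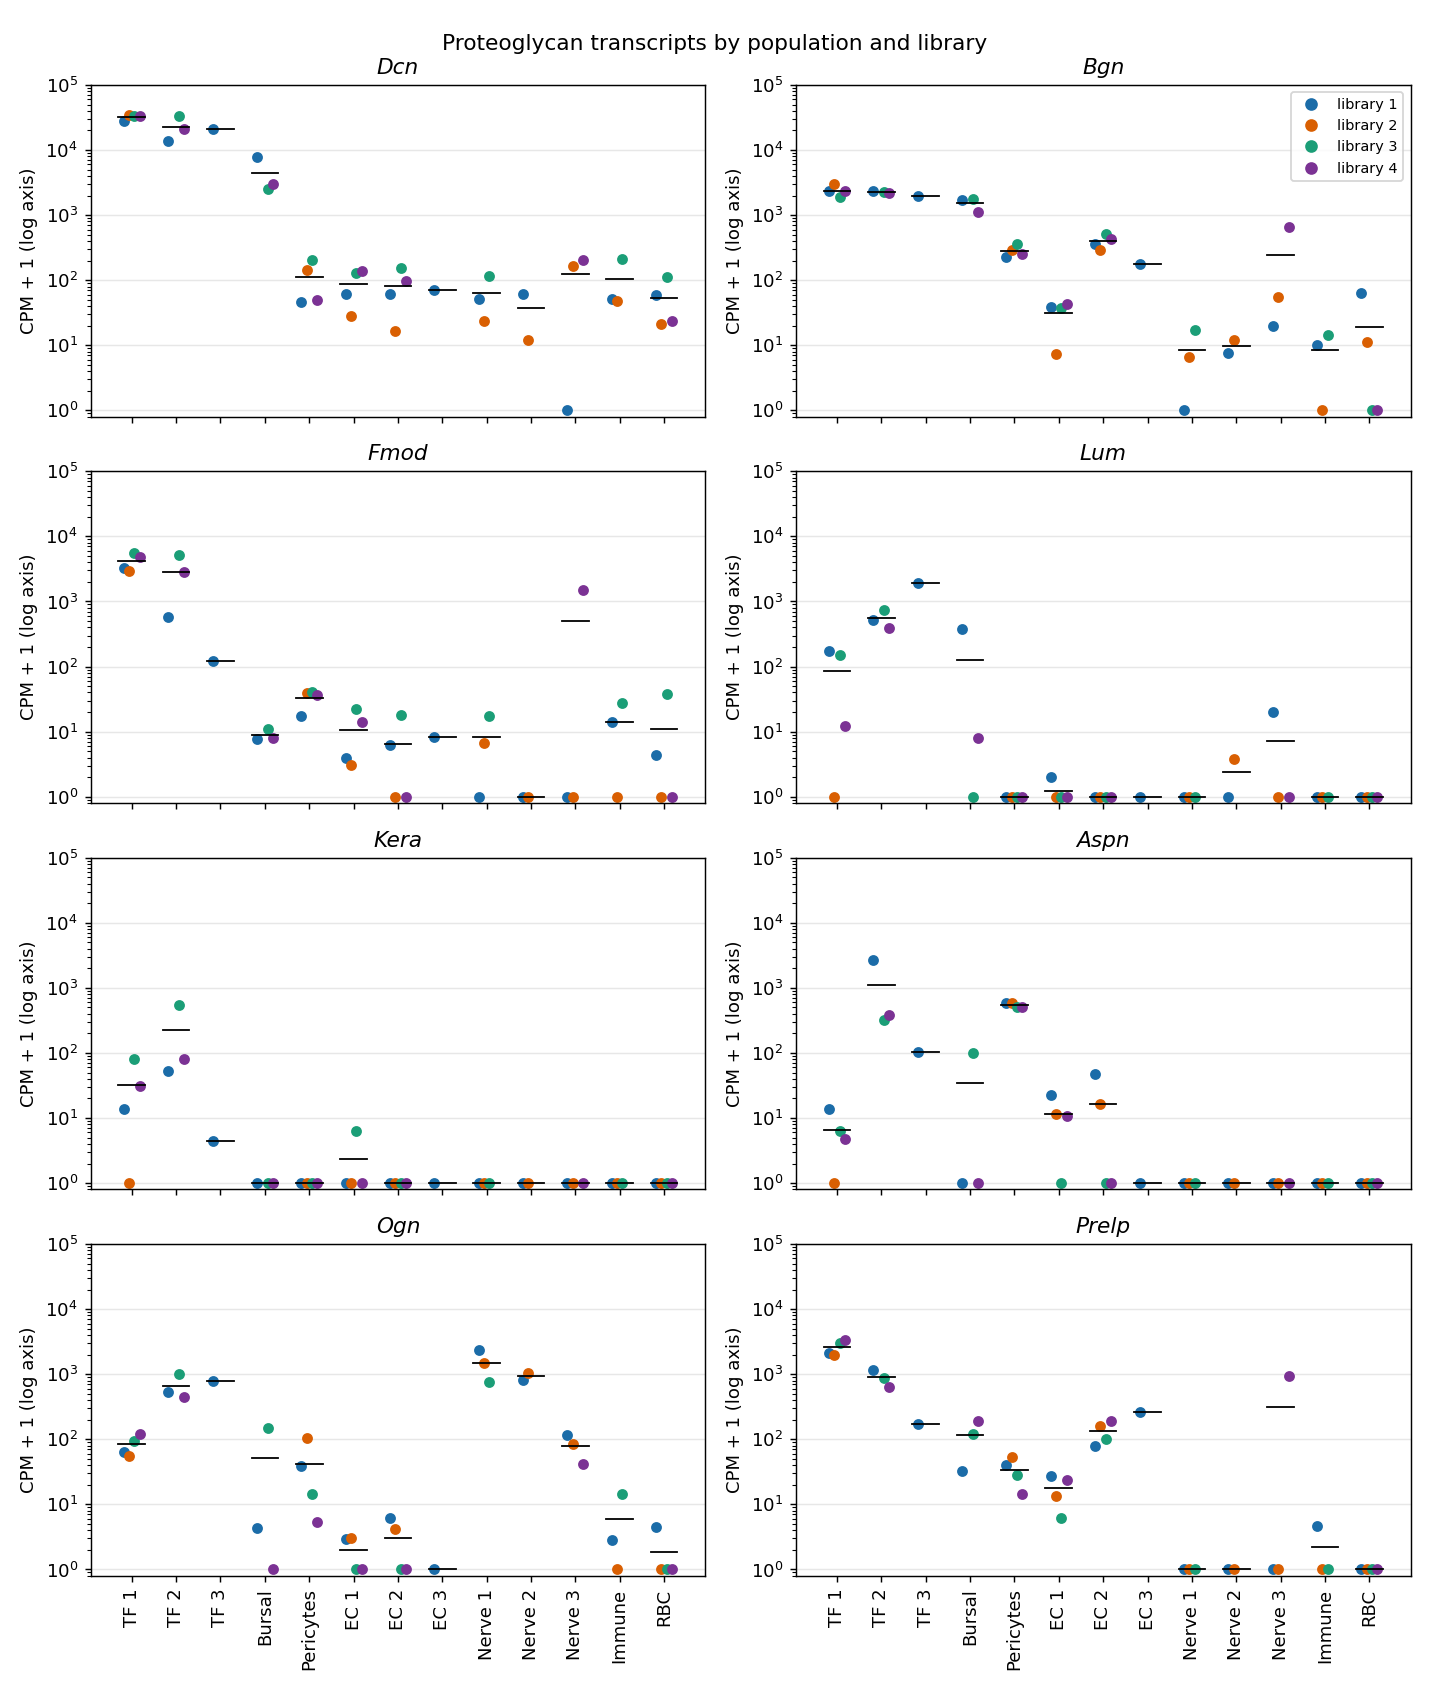
Level of each SLRP gene by population, 1 panel per gene. The x axis lists the populations (TF, tendon fibroblasts; EC, endothelial cells; RBC, red blood cells), the y axis is CPM + 1 on a log scale, each point is the sum of a library with 5 or more cells, and the black line is their mean. Dcn, Bgn, Fmod and Prelp stand highest in tendon fibroblasts 1, Lum in tendon fibroblasts 3, Kera and Aspn in tendon fibroblasts 2 and Ogn in nerve cells 1.

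Decorin, the main dermatan sulfate proteoglycan of tendon, was the most abundant of the 8 transcripts in each of the 4 fibroblast populations. Its level in tendon fibroblasts 1 was 27984, 34389, 33061 and 33740 CPM in libraries 1 to 4. In tendon fibroblasts 2 it was 13862, 32756 and 21403 CPM in libraries 1, 3 and 4, and in tendon fibroblasts 3 it was 20960 CPM in library 1. The sums of tendon fibroblasts 2 overlapped those of both other tendon populations, and in library 3 tendon fibroblasts 1 and 2 were nearly equal. Bursal fibroblasts held 7909, 2521 and 3026 CPM in libraries 1, 3 and 4, below every tendon sum. The level fell further in all other populations, to between 0 and 211 CPM. Immune cells, which are not known as a source of decorin, had 50.02, 46.4 and 211 CPM in libraries 1 to 3. After every cell was thinned to 2400 UMIs, 16.1% of immune cells had a Dcn UMI (14 of 87, exact 95% interval 9.09 to 25.5, median depth 7108.5 UMIs before thinning) against 15.9% of endothelial cells 1 (28 of 176, median depth 7343 UMIs) and 12.5% of pericytes (13 of 104). Before thinning the shares were 37.0, 47.9 and 36.4%. After thinning, the shares pooled over libraries in endothelial cells 1 and pericytes did not exceed that in immune cells. The means over libraries with 5 or more thinned cells were 19.3% ± 13.1 in endothelial cells 1 (SD, n = 4), 15.5% ± 9.88 in pericytes (n = 4) and 16.6% ± 16.7 in immune cells (n = 3). The order of endothelial cells 1 and immune cells thus depends on the pooling. Before thinning, the pooled share in endothelial cells 1 was the highest of these. Pericytes had 45.4, 143 and 202 CPM of Dcn in libraries 1 to 3. They stood above immune cells in library 2 and slightly below them in libraries 1 and 3. Whether these UMIs are background or expression was not tested. Intervals here cover counting error only.

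Biglycan, the X-linked relative of decorin, had the most even level over the fibroblasts. In tendon fibroblasts 1 its level was 2374, 2977, 1868 and 2330 CPM, and in tendon fibroblasts 2 it was 2380, 2298 and 2199 CPM. Tendon fibroblasts 3 had 1961 CPM and bursal fibroblasts 1693, 1754 and 1104 CPM. Outside the fibroblasts the vascular populations differed. Endothelial cells 2 held 356, 289, 505 and 432 CPM of Bgn in libraries 1 to 4, pericytes held 223, 289, 363 and 252 CPM, and endothelial cells 1 held 37.6, 6.24, 36.9 and 41.9 CPM. The 4 sums of endothelial cells 1 thus lie below all those of the other 2 vascular populations, which overlap each other. A Bgn UMI was found in 46.4% of thinned endothelial cells 2 (32 of 69; 68.9% unthinned, median depth 8322.5 UMIs), in 36.5% of pericytes (70.1% unthinned) and in 0 of 87 immune cells (6.52% unthinned). A count of 0 in 87 cells allows a share of up to 3.45% at the thinned depth (3 cells; the exact interval reaches 4.15%).

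Asporin, a class I member with a stretch of aspartates and usually no sugar chain, divided the tissue differently. Tendon fibroblasts 2 had 2647, 324 and 387 CPM of Aspn in libraries 1, 3 and 4, whereas tendon fibroblasts 1 had 12.7, 0, 5.39 and 3.78 CPM in libraries 1 to 4. Pericytes had 590, 592, 511 and 499 CPM. The pericyte sums were close to each other, and those of tendon fibroblasts 2 lay on both sides of them. All nerve, immune and red blood cell populations were at 0 in every sum of 5 or more cells. A UMI of Aspn was found in 70.2% of thinned pericytes (73 of 104; 90.7% unthinned, median depth 9188 UMIs), 46.6% of tendon fibroblasts 2 (69 of 148; 60.9% unthinned) and 0 of 87 immune cells, with an exact interval up to 4.15%. The UMIs in pericytes were spread over cells: in library 1, 52 of 55 pericytes had at least 1, and the most in a single cell was 23.

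Osteoglycin, the class III member, also called mimecan, had its highest level outside the fibroblasts. Nerve cells 1 held 2317, 1465 and 751 CPM of Ogn in libraries 1 to 3, and nerve cells 2 held 813 and 1042 CPM in libraries 1 and 2. Nerve cells 3 held 113, 82.6 and 40.4 CPM in libraries 1, 2 and 4, below all of these. Tendon fibroblasts 3 had 776 CPM, within the range of tendon fibroblasts 2, which had 525, 1014 and 451 CPM. Tendon fibroblasts 1 lay below both, with 63.7, 54.7, 91.7 and 121 CPM. A UMI of Ogn was found in 83.0% of thinned nerve cells 1 (39 of 47; 87.8% unthinned, median depth 4887 UMIs), 86.7% of nerve cells 2 (39 of 45; 91.3% unthinned), 16.1% of tendon fibroblasts 1 and 1.15% of immune cells (1 of 87; 2.17% unthinned). In nerve cells 1 and 2, Prelp and Aspn had 0 UMIs in every library, and Dcn stood at 11.1 to 114 CPM.

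Aspn and Ogn, whose highest levels lie in different cells, are near neighbours in the genome. In RefSeq's annotation of GRCm38.p6, the assembly that mm10 names, Aspn spans chr13:49544443-49567565 and Ogn chr13:49608015-49624501, both on the forward strand, with Omd (osteomodulin) as the sole protein-coding gene between them and Ecm2 as the neighbour before Aspn. Fmod spans chr1:134037254-134048280, next to Prelp (chr1:133910304-133930102, reverse strand), with 107152 bases between them. Dcn (chr10:97479500-97518163), Lum (chr10:97565501-97572703) and Kera (chr10:97606962-97613688) stand in a row with no other protein-coding gene between. Bgn lies at chrX:73483601-73495936. The RefSeq promoter table has an entry for 6 of the 8 genes. The 250 bases before the annotated start are shown for Aspn (chr13:49544193-49544442), Ogn (chr13:49607765-49608014) and Fmod (chr1:134037004-134037253), all on the forward strand, because the highest levels of these genes lie in different populations. Capitals mark the letters CANNTG, the core that basic helix-loop-helix factors such as scleraxis bind, which reads the same pattern on both strands:
Aspn: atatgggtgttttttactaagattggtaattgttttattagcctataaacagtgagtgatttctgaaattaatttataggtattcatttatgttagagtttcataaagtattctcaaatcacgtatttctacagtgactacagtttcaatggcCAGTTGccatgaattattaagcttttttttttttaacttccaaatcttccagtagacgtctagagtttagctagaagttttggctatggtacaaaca
Ogn: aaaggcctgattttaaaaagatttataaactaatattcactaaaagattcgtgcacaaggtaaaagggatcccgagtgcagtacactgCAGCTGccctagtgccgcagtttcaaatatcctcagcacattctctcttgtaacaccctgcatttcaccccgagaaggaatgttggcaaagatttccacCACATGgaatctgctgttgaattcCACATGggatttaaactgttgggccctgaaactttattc
Fmod: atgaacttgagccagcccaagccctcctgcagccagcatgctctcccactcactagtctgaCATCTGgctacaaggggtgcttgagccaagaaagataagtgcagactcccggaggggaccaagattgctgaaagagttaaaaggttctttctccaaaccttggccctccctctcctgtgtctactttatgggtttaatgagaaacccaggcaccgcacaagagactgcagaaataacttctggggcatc
The Ogn window holds 3 matches, the Aspn and Fmod windows 1 each. Of all 32851 RefSeq windows of that length, 66.2% hold the pattern, so a match is common. TATAAA, searched on both strands, was found 2 times in the Aspn window, 2 times in the Ogn window and 0 times in that of Fmod, against 12.4% of all windows with a match. The 2 Ogn matches overlap, 1 on each strand, so they are a single stretch of letters. TGANTCA, the AP-1 pattern, was in none of the 3 windows and in 6.75% of all windows. These matches describe the letters only.

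Fibromodulin, a class II member with sulfated tyrosines and keratan sulfate, stood at 3230, 2907, 5528 and 4837 CPM in tendon fibroblasts 1 of libraries 1 to 4. Of the 8 genes it was second to Dcn there in libraries 1, 3 and 4, and in library 2 Bgn was slightly higher. Tendon fibroblasts 2 ranged widely, at 584, 5114 and 2876 CPM in libraries 1, 3 and 4. Tendon fibroblasts 3 had 122 CPM, and bursal fibroblasts had 6.76, 9.96 and 7.12 CPM, from 4, 1 and 1 UMIs. The UMIs in tendon fibroblasts 2 lay in few cells of 2 libraries: in library 4, 352 of 357 Fmod UMIs were in 1 of 9 cells, and in library 1, 10 of 67 cells had any. In library 3, 53 of 78 cells had a UMI. PRELP, whose gene lies next to Fmod, had 2128, 1993, 3003 and 3409 CPM in tendon fibroblasts 1. Its 1178, 873 and 628 CPM in tendon fibroblasts 2 do not overlap with them. Tendon fibroblasts 3 had 172 CPM of Prelp and bursal fibroblasts 32.1, 120 and 192 CPM. Endothelial cells 3, which hold the lymphatic markers, had 259 CPM in library 1. Over all libraries a Prelp UMI was found in 71.9% of these cells after thinning (23 of 32; 86.1% unthinned, median depth 5139.5 UMIs), against 3.41% of endothelial cells 1 (6 of 176) and 0 of 87 immune cells.

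Lumican and keratocan, the class II members best known from the cornea, were low in tendon fibroblasts 1. Lum stood there at 172, 0, 151 and 11.3 CPM in libraries 1 to 4, where the 0 of library 2 allows up to 23.4 CPM at 3 counts. It was at 519, 740 and 395 CPM in tendon fibroblasts 2 and at 1914 CPM in tendon fibroblasts 3, its highest level in any sum of 5 or more cells. Bursal fibroblasts had 372, 0 and 7.12 CPM, and 1 of the 30 cells in library 1 held 76 of the 220 UMIs there. Kera was the rarest of the 8. Tendon fibroblasts 2 held 51.2, 544 and 80.6 CPM in libraries 1, 3 and 4 and tendon fibroblasts 1 held 12.7, 0, 79.5 and 30.2 CPM in libraries 1 to 4. Library 3 held 528 of all 595 Kera UMIs and library 2 held 0. Beyond tendon fibroblasts a single Kera UMI was seen, in endothelial cells 1.

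**Figure D2:**
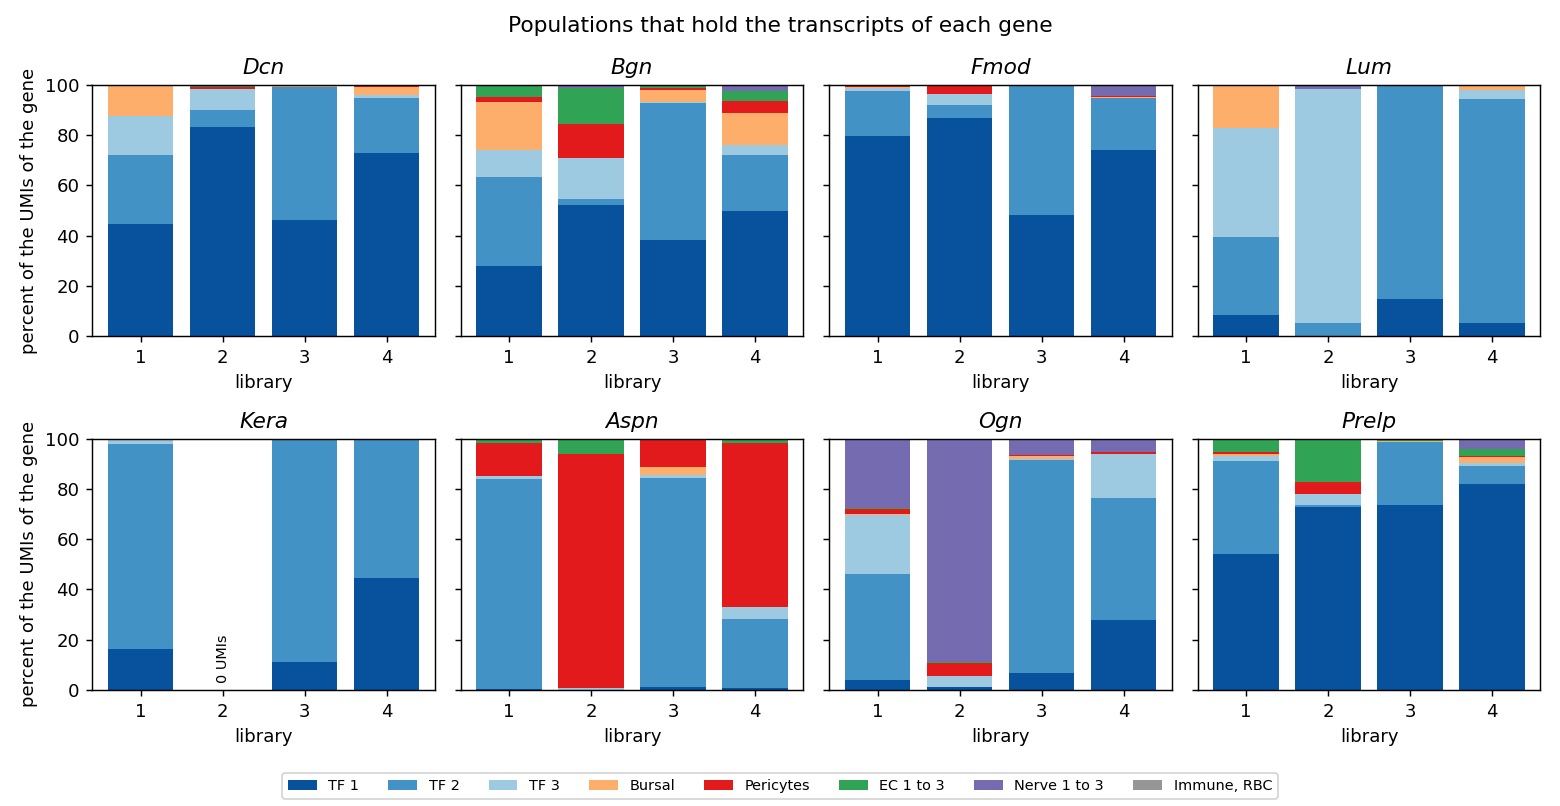
Share of each SLRP gene's UMIs that each population holds, 1 stacked bar per library. The x axis gives the libraries 1 to 4 within each gene, the y axis is percent of the gene's UMIs in that library, and colours mark the populations; Kera has no bar in library 2, where it has 0 UMIs. Tendon fibroblasts hold most Dcn, Fmod and Prelp in all 4 libraries, while in library 2 pericytes hold 93.1% of Aspn and nerve cells 1 to 3 hold 89.0% of Ogn.

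Tendon fibroblasts 1 to 3 held 97.5% ± 2.22 of Fmod UMIs (SD, n = 4 libraries), 95.3% ± 5.29 of Dcn, 94.8% ± 7.97 of Lum, 89.9% ± 8.83 of Prelp and 78.6% ± 9.95 of Bgn. Their share of Aspn was 51.2% ± 41.7 and of Ogn 65.3% ± 41.2, with a wide spread between libraries. In library 2, with its 14 tendon fibroblasts, they held 0.917% of Aspn and 5.73% of Ogn, and pericytes and nerve cells held most of the remainder.

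The first comparison set tendon fibroblasts 1 against tendon fibroblasts 2, in the 3 libraries with 5 or more cells of both (libraries 1, 3 and 4). Prelp was higher in tendon fibroblasts 1, and Aspn, Ogn, Lum and Kera were lower, while Dcn, Bgn and Fmod did not pass the test. All 8 genes were tested. Of all 7043 genes tested 8.12% were called at an adjusted p under 0.05, 4.33% as higher and 3.79% as lower, and the median log2 fold change of the 8 genes was -1.03 against 0.01 over all genes tested. Values are log2 fold changes of the fitted level with their SE, from edgeR's quasi-likelihood test with the library as a block and Benjamini-Hochberg adjustment over all genes tested. The test itself returns no SE, so it was derived as the absolute log2 fold change over the square root of the F statistic. Prelp differed by 1.87 ± 0.31 (2847 ± 655 against 893 ± 276 CPM, SD, n = 3, edgeR adjusted p = 0.00483, higher in 3 of 3 libraries). Aspn had the largest difference of the 8, at -6.81 ± 0.38 (7.30 ± 4.77 against 1119 ± 1324 CPM, edgeR adjusted p = 1.6e-05, lower in 3 of 3). Ogn differed by -2.68 ± 0.33 (edgeR adjusted p = 0.00114) and Lum by -2.25 ± 0.43 (edgeR adjusted p = 0.0097), both lower in 3 of 3 libraries. Without library 1 the difference was -5.95 for Aspn and -2.94 for Lum.

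Kera differed by -2.19 ± 0.34 between tendon fibroblasts 1 and 2 (edgeR adjusted p = 0.0033, lower in 3 of 3 libraries), a call lost without the block and without library 3. Without the block its adjusted p was 0.138, and without library 3 the difference was -1.48 with an adjusted p of 0.0986, with adjusted p-values of 5.5e-09 to 0.138 over 11 alternatives. Dcn differed by 0.77 ± 0.30 (edgeR adjusted p = 0.201) and Fmod by 1.29 ± 0.43 (edgeR adjusted p = 0.123, higher in 3 of 3 libraries). Both passed without library 3, Dcn at 1.10 (adjusted p = 0.0156) and Fmod at 1.88 (adjusted p = 0.00857). Without the filter on low counts the adjusted p was 0.0198 for Dcn and 1.8e-05 for Fmod, and in thinned cells it was 0.0269 for Fmod. Over 12 alternatives the adjusted p reached 0.815 for Dcn and 0.608 for Fmod. Bgn, at 0.13 ± 0.22 (2191 ± 280 against 2292 ± 90.4 CPM, edgeR adjusted p = 0.845, higher in 1 of 3 libraries), had the smallest difference. Its fitted sign and its mean CPM thus point in opposite directions. Beside these results, tendon markers moved with the library in tendon fibroblasts 2, at 25209, 72373 and 47173 CPM in libraries 1, 3 and 4, with Tnmd (tenomodulin) at 256, 982 and 733 CPM. The summed level of 4 markers of loose connective tissue fibroblasts (Cd34, Ly6a, Pi16 and Dpt) was 2138 to 3000 CPM in tendon fibroblasts 2 and 7.81 to 135 CPM in tendon fibroblasts 1, where Pi16 was at 0. The part of either in the differences was not tested.

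**Figure D3:**
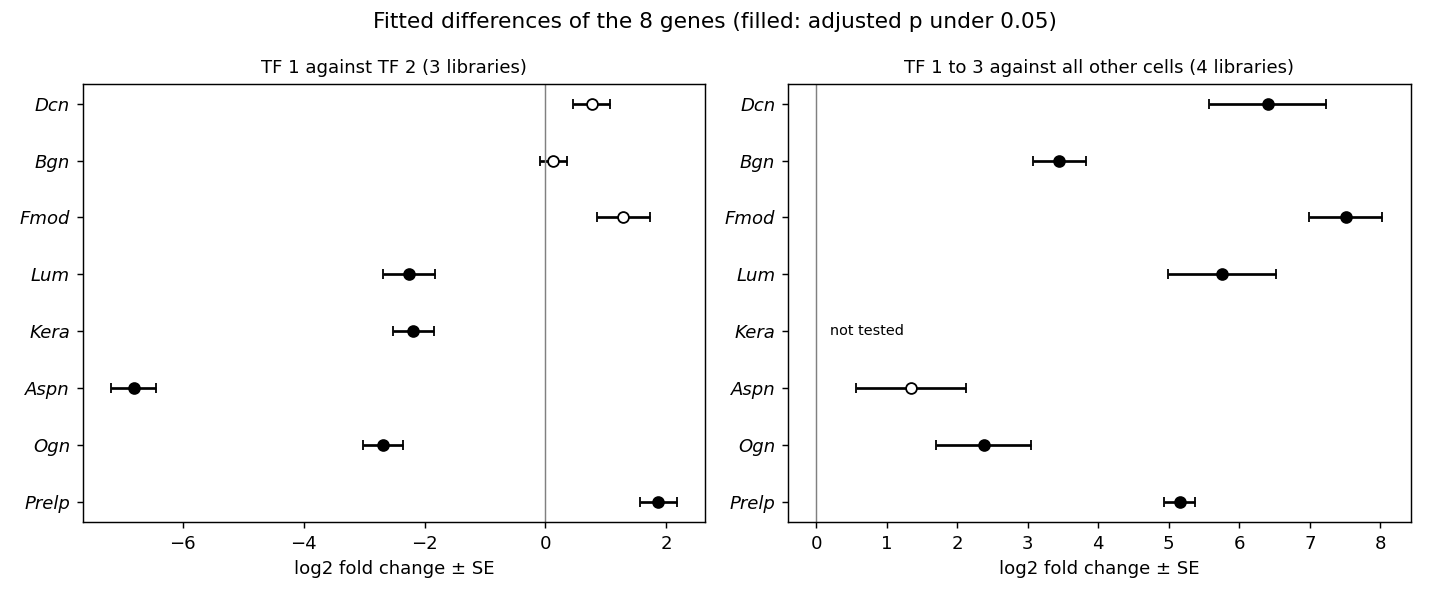
Differences of the 8 genes in 2 comparisons. The x axis is the log2 fold change with bars of ± 1 SE, for tendon fibroblasts 1 against 2 (3 libraries) and for tendon fibroblasts 1 to 3 against all other cells (4 libraries); filled points have an adjusted p under 0.05. Aspn lies at -6.81 in the first comparison and at 1.34, open, in the second, and Kera was not tested in the second.

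UMIs of Aspn and Kera were unevenly spread over the cells of tendon fibroblasts 2. The libraries differed in the share of these cells with a UMI of either gene. After thinning, 41 of 63 such cells in library 1 had Aspn but no Kera, 2 had Kera but no Aspn, 1 had both and 19 had neither. In library 3 the counts were 14, 22, 10 and 29 of 75 cells, and in library 4 they were 3, 1, 0 and 4 of 8 cells. Cells with Aspn alone were thus most frequent in library 1 and cells with Kera most frequent in library 3. A thinned cell without a UMI may still hold the transcript. Whether the libraries differ in their mix of cells or in the level per cell was not tested. In library 3 a cell with Kera alone had a mean of 23.7 Fmod UMIs, a cell with Aspn alone 1.86 and a cell with neither 9.24. In the same order of cells the mean was 86.9, 62.3 and 70.7 UMIs for Dcn and 3.36, 5.43 and 5.59 UMIs for Bgn. Over the cells of library 3, Spearman's rho between Fmod and Kera was 0.42 and between Fmod and Aspn -0.35. In library 1 rho was -0.47 between Aspn and Ogn, 0.47 between Aspn and Prelp and -0.45 between Ogn and Prelp. Cells of a library share that library's depth and free RNA, so these values describe it and carry no test. Pericytes are the other place of Aspn, and 5 markers of pericytes and smooth muscle summed to 13122 to 21611 CPM there. In tendon fibroblasts 2 they summed to 193, 222 and 242 CPM in libraries 1, 3 and 4, and in tendon fibroblasts 1 to 68.0 to 137 CPM. Whether RNA of pericytes has a part in the Aspn of tendon fibroblasts 2 was not tested.

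**Figure D4:**
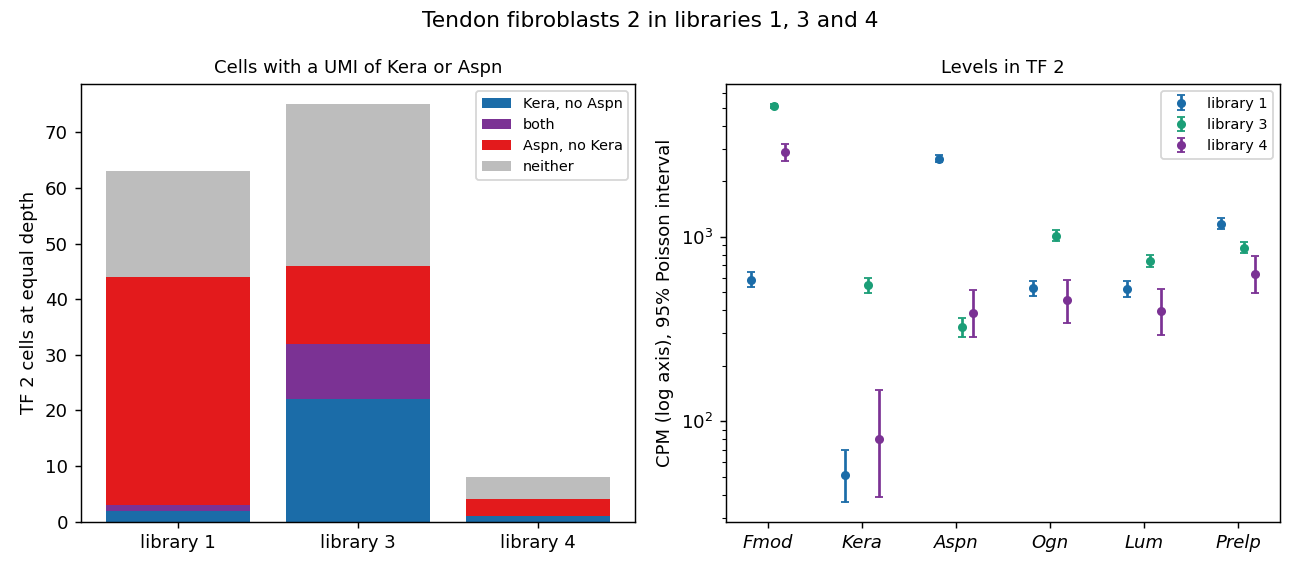
Aspn and Kera within tendon fibroblasts 2 of libraries 1, 3 and 4. Left, number of cells thinned to 2400 UMIs with Kera alone, Aspn alone, both or neither (y axis, cells); right, level of the genes in CPM on a log axis with exact 95% Poisson intervals, which cover counting error only. Aspn alone marks 41 of 63 cells in library 1, and Kera alone marks 22 of 75 cells in library 3.

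Bursal fibroblasts were compared with both tendon populations, and these comparisons share the bursal sums, 30 of whose 40 cells come from library 1. Against tendon fibroblasts 1, 6 of the 8 genes were tested and 3 were higher in tendon, with 15.0% of 5186 genes called, 8.99% higher and 6.00% lower. Fmod differed by 9.12 ± 0.46 (4532 ± 1179 against 7.95 ± 1.75 CPM, edgeR adjusted p = 4.35e-08), Prelp by 5.11 ± 0.41 (2847 ± 655 against 115 ± 80.2 CPM, edgeR adjusted p = 1.2e-06) and Dcn by 3.20 ± 0.44 (edgeR adjusted p = 1.4e-04), each higher in 3 of 3 libraries. Dcn differed by 3.93 without library 1, and its call was lost in thinned cells (adjusted p = 0.0683, 3.7e-20 to 0.0683 over 11 alternatives). Bgn differed by 0.72 ± 0.31 (edgeR adjusted p = 0.154) and Lum by 0.29 ± 0.72 (edgeR adjusted p = 0.852). Ogn, at 1.86 ± 0.73 (edgeR adjusted p = 0.114), passed in DESeq2 (adjusted p = 0.0281), without the filter (adjusted p = 1.6e-04), with names re-assigned without the 8 genes (adjusted p = 1.3e-04) and without library 3 (4.75, adjusted p = 1.4e-05), with adjusted p-values of 1.4e-05 to 0.655 over 11 alternatives; 15 of the 17 bursal Ogn UMIs are from the 5 bursal cells of library 3. Kera had 75 UMIs against 0, a bound of 12.7-fold with UMIs pooled over libraries and a floor of 3 counts over the group. This pooled bound was 4.37-fold without library 3 and 5.34-fold without library 1. Kera levels and bursal depth both differ between libraries, so it is not a bound within a library.

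Against tendon fibroblasts 2, all 8 genes were tested and 5 were higher in tendon, with 6.45% of 4960 genes called, 4.15% higher and 2.30% lower. Fmod differed by 7.67 ± 0.63 (edgeR adjusted p = 1.2e-04) and Prelp by 3.26 ± 0.58 (edgeR adjusted p = 0.0063). When single libraries were left out, Fmod ran from 7.07 (without library 3) to 8.95 (without library 1) and Prelp from 2.42 (without library 1) to 4.10 (without library 4). Kera had 518 UMIs against 0 (edgeR adjusted p = 5.8e-04). With UMIs pooled over libraries and a floor of 3 counts the bound was 81.4-fold, or 13.5-fold without library 3 and 39.0-fold without library 1. Library 3 held 468 of the 518 UMIs, whereas 591367 UMIs of the bursal sums, the most of any library, are from library 1. The pooled value is therefore not a bound within a library. Ogn differed by 4.89 ± 0.74 (edgeR adjusted p = 0.00258), though not without the block (adjusted p = 0.0553) or without library 1 (3.94, adjusted p = 0.0599, 8.0e-22 to 0.0599 over 11 alternatives), and by 7.28 without library 3. Aspn differed by 5.84 ± 1.41 (edgeR adjusted p = 0.0344), a call lost in DESeq2 (adjusted p = 0.0652), without library 1 (3.27, adjusted p = 0.123) and without library 4 (adjusted p = 0.244, 1.6e-22 to 0.244 over 11 alternatives). Dcn, at 2.49 ± 0.69 (edgeR adjusted p = 0.0636), and Lum, at 3.01 ± 1.05 (edgeR adjusted p = 0.143), did not pass here. Dcn passed in DESeq2 (adjusted p = 0.00223), without TMM (adjusted p = 0.00233), without the filter (adjusted p = 4.4e-04) and without library 1 (3.43, adjusted p = 0.0354), with adjusted p-values of 4.4e-04 to 0.461 over 11 alternatives. Lum passed without library 1 (7.05, adjusted p = 0.0181), without library 3 (1.74, adjusted p = 0.0194), without TMM (adjusted p = 0.0239), without the filter (adjusted p = 2.9e-08) and with re-assigned names (adjusted p = 0.0484), with adjusted p-values of 2.9e-08 to 0.69 over 11 alternatives. Bgn again had the smallest difference, 0.63 ± 0.35 (edgeR adjusted p = 0.422).

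Tendon fibroblasts 1 to 3 together were then set against all other cells of the same library, in 4 libraries. Dcn, Bgn, Fmod, Lum, Prelp and Ogn were higher in tendon fibroblasts, 6 of the 7 genes tested, where 29.4% of 9541 genes were called, 13.5% higher and 15.9% lower. Fmod differed by 7.51 ± 0.52 (edgeR adjusted p = 1.2e-05), Dcn by 6.41 ± 0.83 (edgeR adjusted p = 4.3e-04), Lum by 5.75 ± 0.77 (edgeR adjusted p = 5.0e-04), Prelp by 5.16 ± 0.22 (edgeR adjusted p = 1.4e-06) and Bgn by 3.45 ± 0.37 (edgeR adjusted p = 1.5e-04). Each of these was higher in 4 of 4 libraries. Bursal fibroblasts held 5355 of the 5792 Dcn UMIs and 221 of the 224 Lum UMIs of the other cells. Without them the difference was 8.74 for Dcn, 9.98 for Lum and 4.52 for Bgn. Leaving out single libraries moved Dcn to 7.20 (without library 1) and 5.53 (without library 2), Lum to 8.98 and 4.94 (without the same libraries) and Fmod to 8.19 (without library 4). Ogn differed by 2.37 ± 0.67 (369 ± 161 against 134 ± 136 CPM, edgeR adjusted p = 0.0258, higher in 3 of 4) and lost its call without the block (adjusted p = 0.109) and without library 1, 3 or 4 (adjusted p = 0.094, 0.0811 and 0.0743, 8.3e-05 to 0.109 over 15 alternatives). It was 3.12 without library 2 and 1.73 without library 4. Aspn differed by 1.34 ± 0.78 (390 ± 567 against 98.0 ± 20.3 CPM, edgeR adjusted p = 0.251) and passed without library 2 (2.10, adjusted p = 0.035), without the filter (adjusted p = 0.0482) and in thinned cells (adjusted p = 0.0438, 0.035 to 0.692 over 15 alternatives). Kera, untested, had 594 UMIs against 1, a CPM ratio of 1152 with UMIs pooled over libraries. Its exact 95% interval of 206 to 45592 covers counting error and not the spread between libraries. The means over libraries were 99.7 ± 153 against 0.380 ± 0.760 CPM (SD, n = 4), and library 3 held 528 of all 595 Kera UMIs. Without library 3 Kera had 67 UMIs against 0, a pooled bound of 67.3-fold.

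Vascular and nerve populations were compared with endothelial cells 1, whose sums these comparisons share. Pericytes had higher Aspn, by 5.54 ± 0.34 (548 ± 49.9 against 10.5 ± 8.90 CPM, edgeR adjusted p = 3.0e-06), and higher Bgn, by 3.30 ± 0.36 (282 ± 60.4 against 30.7 ± 16.4 CPM, edgeR adjusted p = 6.8e-05), both in 4 of 4 libraries. Without library 1 Aspn differed by 6.17. Dcn, at 0.41 ± 0.49 (edgeR adjusted p = 0.57), was not called, which makes 2 of 3 genes tested where 34.2% of 5493 genes were called, 16.6% higher and 17.6% lower. Nerve cells 1 to 3 together had 976 Ogn UMIs against 3 in endothelial cells 1, a CPM ratio of 670 with an exact 95% interval of 229 to 3254 (edgeR adjusted p = 6.8e-06, higher in 4 of 4 libraries). That is 1 of 3 genes tested, where 34.6% of 5069 genes were called, 15.5% higher and 19.1% lower. Dcn (0.11 ± 0.29, edgeR adjusted p = 0.836) and Bgn (1.16 ± 0.90, edgeR adjusted p = 0.368) were not called there. Aspn had 0 UMIs in nerve cells against 30 in endothelial cells 1. The bound pooled over libraries was 4.86-fold lower, or 1.92-fold without library 1 and 2.18-fold without library 2. Endothelial cells 2 against 1 was added after the levels were seen: Bgn differed by 3.73 ± 0.26 (395 ± 93.4 against 30.7 ± 16.4 CPM, edgeR adjusted p = 3.55e-08) and Prelp by 2.65 ± 0.35 (131 ± 50.7 against 16.8 ± 9.71 CPM, edgeR adjusted p = 3.4e-05, and 3.48 without library 1), while Dcn did not pass (-0.10 ± 0.27, edgeR adjusted p = 0.883). Here 2 of 3 genes tested were called, against 18.2% of 5126 genes, 10.5% higher and 7.74% lower.

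Genes for building, sulfating and receiving SLRPs, for propeptide processing and for collagens were followed as lists in the same fits. The counts of list genes stand beside 13.5% higher and 15.9% lower of all 9541 genes in tendon fibroblasts against other cells (median log2 fold change -0.01), and 4.33% higher and 3.79% lower of all 7043 genes between tendon fibroblasts 1 and 2 (median 0.01). Of 10 other SLRP genes, 4 were tested in tendon fibroblasts against all other cells and all 4 were higher, against 13.5% of all genes (Chad, Ecm2, Podn and Omd; median 5.61). Between tendon fibroblasts 1 and 2, Chad and Omd were higher in the former. Ecm2 and Podn were not called there, with 532 ± 15.7 against 703 ± 153 CPM and 12.8 ± 11.02 against 50.7 ± 19.5 CPM. Of 16 tested genes for chondroitin and dermatan sulfate synthesis, 10 were higher in tendon fibroblasts than in other cells and 0 lower, against 13.5 and 15.9% of all genes (median 1.07), among them Csgalnact2, which starts the chondroitin chain (2.48 ± 0.20, edgeR adjusted p = 2.6e-05), and the sulfotransferase gene Chst12 (2.72 ± 0.28, edgeR adjusted p = 1.2e-04). Between tendon fibroblasts 1 and 2, 4 of 15 were higher and 0 lower, against 4.33 and 3.79% of all genes, again with Csgalnact2 (1.12 ± 0.23, edgeR adjusted p = 0.0155) and Chst12 (1.20 ± 0.23, edgeR adjusted p = 0.0118). Chst15, whose mean level over populations lies between theirs, was called in neither comparison and was highest in endothelial cells 1 (129 CPM).

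Among genes for keratan sulfate and tyrosine sulfation, 1 of 6 was higher than in all other cells, near the 13.5% of all genes, the galactosyltransferase gene B4galt1 (0.90 ± 0.24, edgeR adjusted p = 0.0213), and 3 were lower, against 15.9% of all genes (median -0.82), among them Tpst2, a tyrosyl sulfotransferase (24.6 ± 3.39 against 69.8 ± 4.83 CPM, edgeR adjusted p = 9.5e-04), and Chst2 (edgeR adjusted p = 0.00112), whose highest level was 461 CPM in bursal fibroblasts. Genes listed for propeptide processing (Bmp1, Pcolce and Pcolce2) were higher in tendon fibroblasts in 3 of 3 cases, against 13.5% of all genes. They divided between the tendon populations: Pcolce2 was higher in tendon fibroblasts 1 (1265 ± 181 against 362 ± 392 CPM, edgeR adjusted p = 0.0227), and Pcolce (327 ± 62.0 against 1109 ± 188 CPM, edgeR adjusted p = 0.00165) and Bmp1 (85.0 ± 13.3 against 312 ± 83.3 CPM, edgeR adjusted p = 0.00137) were lower. All 10 tested collagen genes were higher in tendon fibroblasts than in other cells, against 13.5% of all genes (median 4.47), and between tendon fibroblasts 1 and 2 Col1a1 (44640 ± 2593 against 43261 ± 19993 CPM) and Col1a2 were not called while Col3a1 was lower (-1.98 ± 0.29, edgeR adjusted p = 0.0027). Of 12 receptor and signalling genes, 6 were higher in tendon fibroblasts than in other cells and 0 lower, against 13.5 and 15.9% of all genes, including Lrp1, an endocytic receptor that takes up decorin (1198 ± 114 against 306 ± 162 CPM, edgeR adjusted p = 7.4e-04). Tgfb1 and Itgb1 were not called there.

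The genes whose levels ran closest to each SLRP gene were found by Pearson's r of log2(CPM + 10) over 39 library and population sums, among 4525 genes. The sums share libraries, so r is a description. Dcn ran closest to Htra3 (r = 0.95), Igfbp6 and Pcolce2, Bgn to Sulf1 (0.89), Prelp and Twsg1, and Prelp to Bgn (0.88), Ecm2 and Abi3bp. For Fmod the closest were Thbs4 (0.91), Ptgis and Fibin, and for Lum they were Svep1 (0.89), Podn and Fbln1. Kera ran with Angptl1 (0.96), Sfrp2 and Tnmd, Aspn with Cacna1g (0.83), Col4a5 and C1s1, and Ogn with Chrdl1 (0.88), Arhgap24 and Mme. Among the 8 genes, neighbours in the genome were not the closest pairs throughout: r was 0.84 between Fmod and Prelp, 0.74 between Dcn and Lum, 0.70 between Lum and Kera and 0.24 between Aspn and Ogn.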

How the data were processed

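Single cells of mouse Achilles tendon were profiled in 4 libraries. The authors' deposited files are raw UMI counts (genes by cells) and a list of each cell's library and population; a deposited table of normalized values was not used. The submitters' processing notes name Cell Ranger, Seurat 2.3.4, R 3.5.2 and mm10. Cell filters and the clustering are not given in the sources used here. Of 15750 entries, 4 under a repeated name (0.0186% of UMIs) were left out. No cell was removed and no doublet caller was run; leaving out 154 cells with over 2 times the median UMIs of their population and library was an alternative. The lowest cell has 1010 UMIs.

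Counts were summed per library and population (5 or more cells, 3 or more libraries with both sums) and tested in R 4.3.3 with edgeR 4.0.16 (TMM, filterByExpr, quasi-likelihood test, Benjamini-Hochberg). The library is a block because each library supplies both sums. DESeq2 1.42.0 was an alternative. Shares of cells with a UMI used cells thinned to 2400 UMIs, leaving out 114 shallower cells. Shares have exact Clopper-Pearson 95% intervals. CPM ratios and bounds for genes with few or no UMIs on 1 side pool the UMIs of the libraries. They ignore the pairing by library, and their intervals cover counting error only. Other steps used python 3.11.15, pandas 2.3.3 and scipy 1.17.1. The test was checked on simulated data. Sequences and coordinates are from RefSeq (GRCm38.p6).

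All 8 genes are described. From each pathway list at most the 3 genes with the highest mean level are given with values, and the 3 closest genes by r are named for each SLRP gene. The genes and lists were chosen with earlier results of these data known.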

Additional observations from a re-analysis of the deposited data

Results flagged for a closer look

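With 4 libraries, a level was marked when 1 library stood apart by more than Dixon's 95% limit. Of 39 groups tested, 7 were marked. The limit holds for normal values, and a group with a UMI in 1 library alone is always marked. The count of marks can therefore not be set against a chance rate. Bgn in endothelial cells 1 was lowest in library 2, at 6.24 CPM. In red blood cells library 1 was the highest for Bgn (61.8 CPM, 18 UMIs) and Ogn (3.44 CPM, 1 UMI). For Fmod library 3 was (37.1 CPM, 2 UMIs). Lum and Kera in endothelial cells 1 were each marked by a single UMI, at 0.989 CPM in library 1 and 5.28 CPM in library 3. The share of Lum UMIs held by tendon fibroblasts was lowest in library 1, at 82.9%, where bursal fibroblasts held 16.9%.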

How the results depend on the processing

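Of 458 values of single SLRP genes under alternative settings, 413 kept their direction and their side of the threshold. The cause of the changes was not tested. Directions turned for 4 differences that were never called. Bgn between tendon fibroblasts 1 and 2 was -0.0034 with at least 10 cells per sum, -0.0866 without TMM and -0.0092 in thinned cells, and ran from -0.0034 to 0.31 when single libraries were left out. Lum between tendon fibroblasts 1 and bursal fibroblasts was -0.41 with no replicate block, -0.66 in thinned cells and -0.86 to 0.25 without single libraries, the lowest without library 3. Dcn in pericytes against endothelial cells 1 ran from -0.32 (without library 2) to 0.91 (without library 4). Dcn in nerve cells against endothelial cells 1 was -0.12 with at least 10 cells per sum, -0.24 with no replicate block and -0.047 without the filter on low counts, and ran from -0.12 (without library 4) to 0.28 without single libraries.

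Counts of all genes called moved more. Between tendon fibroblasts 1 and 2, 572 genes were called, 371 by DESeq2, 1073 without the filter, 336 in thinned cells and 362 to 529 without single libraries. Tendon fibroblasts 1 against bursal fibroblasts gave 777, with 503, 1216, 196 and 380 to 892 in the same order. Tendon fibroblasts 2 against bursal fibroblasts gave 320, with 727 without the filter, 87 in thinned cells and 149 to 399 without single libraries. Tendon fibroblasts against all other cells gave 2802, with 1311 in thinned cells and 1930 to 2760 without single libraries. Pericytes against endothelial cells 1 gave 1877, with 2918, 499 and 1310 to 2238, and nerve cells 1753, with 3136, 1115 and 1009 to 2616 (without the filter, thinned, without single libraries). With no replicate block, 547, 817, 262, 2889, 1993 and 2062 genes were called in these 6 comparisons. At least 10 bursal cells are found in library 1 alone, so this minimum was not run there.

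Tendon fibroblasts 3 have 45 of 51 cells in library 1 and no test, bursal fibroblasts have 5 cells each in libraries 3 and 4, and nerve cells 3 have a median of 2591 UMIs, with 13 of 32 cells left out by thinning. The block changed no call of the 8 genes but those of Kera and Ogn given with the results.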

Other observations

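Nerve cells 3 had Fmod, Prelp and Bgn in library 4, at 1494, 929 and 646 CPM, and 0, 0 and at most 55.0 CPM in libraries 1 and 2. A single cell of 43707 UMIs held 68 of the 74 Fmod UMIs, 46 of the 46 Prelp UMIs and 27 of the 32 Bgn UMIs of these 5 cells. Without that cell 5824 UMIs were left, with Fmod at 1030 CPM from the remaining 6 UMIs, Bgn at 859 CPM and Prelp at 0.

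Pericytes had 59 Ogn UMIs against 3 in endothelial cells 1, a CPM ratio of 32.8 (exact 95% interval 10.7 to 164), or 57.9 without library 1 and 20.4 without library 2. These UMIs were unevenly spread: 7 of 55 pericytes in library 1 and 5 of 25 in library 2 had any, and the cell with the most held 19. Within tendon fibroblasts 1, Dcn and Prelp rose together over cells, with Spearman's rho of 0.47 in library 1 (58 cells) and 0.53 in library 3 (75 cells), while rho between Dcn and Bgn was -0.26 and 0.05. In the 40 thinned tendon fibroblasts 3 of library 1, rho was 0.39 between Dcn and Lum and -0.49 between Dcn and Bgn. These values share the library's depth and carry no test.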
